A study of Drosophila melanogaster with 6 samples.

Results

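The cadherin genes CadN, CadN2, shg, stan, ds, ft, Cad86C, Cad87A, Cad88C and Cad96Ca were followed in bulk RNA-seq of Drosophila projection neurons of the anterodorsal lineage (adPNs), the second-order olfactory neurons whose dendrites each occupy a glomerulus of the antennal lobe. The genes were chosen by name, as cadherins of neurons and of planar polarity, and 9 of the 10 were found among the 17471 gene identifiers with counts. The remaining gene, ds, is given no value, since the gene tables used here tie its symbol to no identifier in the files. It may still have been counted, since 229 of the identifiers matched no symbol. Cells were taken at 36 to 40 h after puparium formation, and 3 libraries labelled wild-type were compared with 3 labelled acj6 mutant. The titles of the latter name acj66, and the labels describe neither the lesion nor the driver or marker used to collect the cells, nor the sex, age beyond that stage or number of flies per library. acj6 encodes a POU-domain transcription factor made in this lineage, and the series title poses the question of how it controls dendrite targeting through combinations of cell-surface proteins. Nothing in the labels says that the 3 libraries of a genotype are separate dissections. The p-values thus refer to variation among libraries, part of which may be technical.

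Cadherins are calcium-dependent adhesion proteins with tandem cadherin repeats outside the cell. The classical cadherins, among them N-cadherin (CadN) and E-cadherin (shg), bind like to like and are tied to actin by beta-catenin (arm) and alpha-catenin. N-cadherin in projection neurons is known to keep their dendrites confined to single glomeruli. The atypical cadherins form other systems: stan (Flamingo) is a seven-pass membrane protein of the planar polarity core and of growing axons and dendrites, whereas ft and ds encode giant cadherins that bind each other between neighbouring cells and feed the Hippo pathway.

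Gene counts per library ranged from 24467328 to 38279909, so that 3 counts stood for 0.0784 to 0.123 CPM, the count scaled to a common library total. CPM values below were scaled with TMM factors, and log2 fold changes are acj6 mutant minus wild-type, with the SE of the fit. Adjusted p-values come from edgeR's quasi-likelihood test with Benjamini-Hochberg adjustment over the 9229 genes that passed the filter on low counts, and a gene was called when this value was under 0.05. The neuron genes elav (229 to 299 CPM) and nSyb (1227 to 1526 CPM) and the adPN marker C15 (136 to 195 CPM) were present in all 6 libraries. acj6 transcripts were counted at 149 ± 7.96 CPM (SD, n = 3) in wild-type and 250.5 ± 24.2 CPM in the mutant-labelled libraries (log2 fold change 0.75 ± 0.12, adjusted p 0.0124). A count over the whole gene therefore does not check the genotype label.

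CadN was by far the most abundant of the 9 genes per length of transcript, and stan and Cad87A followed. Per kilobase of annotated exon sequence, CadN stood at 35.4 ± 3.93 CPM per kb in wild-type and 53.2 ± 4.12 CPM per kb in the mutant-labelled libraries (SD, n = 3 each). stan stood at 8.88 ± 1.64 and 11.9 ± 0.763 CPM per kb, and Cad87A at 5.52 ± 0.661 and 4.94 ± 1.20 CPM per kb. These 3 genes did not overlap one another, or any other member, in either genotype. In wild-type the next pair, Cad96Ca (2.04 ± 0.675 CPM per kb) and CadN2 (1.66 ± 0.486 CPM per kb), overlapped each other. Below them lay Cad88C (0.622 ± 0.351), shg (0.471 ± 0.258), ft (0.195 ± 0.144) and Cad86C (0.160 ± 0.176 CPM per kb), each overlapping its neighbour in that order. In the mutant-labelled libraries CadN2, Cad88C, Cad86C, Cad96Ca, shg and ft followed Cad87A in that order, from 1.89 ± 0.566 down to 0.0857 ± 0.0159 CPM per kb, and each again overlapped the next. CadN held 64.5% ± 0.765 of the CPM per kb summed over the 9 genes in wild-type and 70.1% ± 2.04 in the mutant-labelled libraries. Dividing by the median transcript length instead of the merged exons gave the same order in both genotypes.

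**Figure D1:**
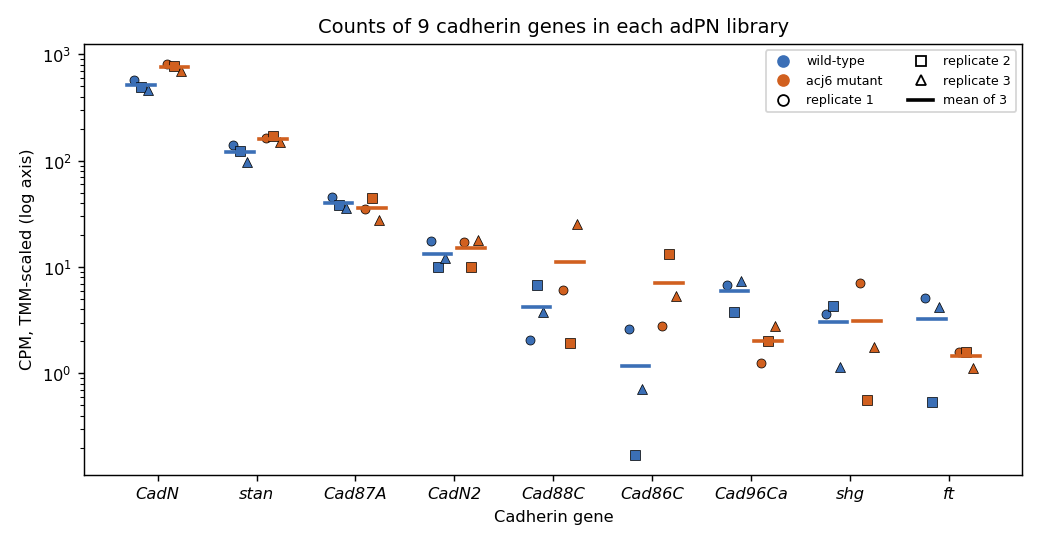
TMM-scaled CPM (log axis) of the 9 cadherin genes in each of the 6 libraries. Points are libraries, their shape the replicate number and their colour the genotype label, and bars are means of 3. CadN lies between 462 and 572 CPM in wild-type and between 701 and 817 CPM in the mutant-labelled libraries. In contrast, shg, ft, Cad86C and Cad88C scatter widely within at least 1 genotype.

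CadN, the N-cadherin gene, was the 1 member called, and it rose in the mutant-labelled libraries by 1.50-fold. Its level was 572, 494 and 462 CPM in wild-type replicates 1 to 3 and 817, 780.4 and 701 CPM in mutant-labelled replicates 1 to 3. The lowest mutant-labelled library lay above the highest wild-type one. The means were 509.7 ± 56.6 and 766 ± 59.3 CPM (SD, n = 3), with a log2 fold change of 0.59 ± 0.11 (95% interval 0.33 to 0.84) and an adjusted p of 0.0243. In mean CPM the gene stood above 97.6% of the genes tested. The call did not hold without wild-type replicate 2 (adjusted p 0.101), wild-type replicate 3 (0.0826), mutant-labelled replicate 1 (0.0814) or mutant-labelled replicate 2 (0.0763), while the log2 fold change stayed between 0.52 and 0.69 over all 6 leave-outs. With each library's trend against transcript length removed, the log2 fold change of CadN was 0.23 and its adjusted p 0.259.

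CadN2 neighbours CadN on chromosome arm 2L and encodes a second N-cadherin, which acts together with CadN in photoreceptor axon targeting. It was counted at 17.6, 10.1 and 12.1 CPM in wild-type replicates 1 to 3 and at 17.3, 9.93 and 18.1 CPM in mutant-labelled replicates 1 to 3. The genotypes overlapped over nearly their whole range. Its log2 fold change was 0.19 ± 0.36 (adjusted p 0.855), and the 95% interval, from -0.63 to 1.02, included both 0 and the estimate for CadN. In raw counts CadN2 came to 3.07%, 2.04% and 2.61% of the CadN count in wild-type replicates 1 to 3. The corresponding shares were 2.12%, 1.27% and 2.59% in mutant-labelled replicates 1 to 3. The mean log2 ratio of CadN2 to CadN was -5.30 ± 0.298 (SD, n = 3) in wild-type and -5.71 ± 0.528 in the mutant-labelled libraries, a difference of -0.41. A two-sided exact permutation test over the libraries gave p 0.4, where the smallest p it allows is 0.1. Reads that align equally well to both paralogs are not among the counts, and how many there were was not tested.

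shg encodes E-cadherin, the classical cadherin of epithelial adherens junctions. It was counted at 3.61, 4.29 and 1.15 CPM in wild-type replicates 1 to 3 and at 7.06, 0.568 and 1.75 CPM in mutant-labelled replicates 1 to 3. The highest and the lowest value both came from mutant-labelled libraries, which differed by 12.4-fold and rest on 266 and 17 reads. The fitted difference was 0.05 ± 0.97 on the log2 scale (95% interval -2.15 to 2.26, adjusted p 0.986), and its sign turned without mutant-labelled replicate 1 (-1.37), without wild-type replicate 3 (-0.34), with limma-voom (-0.41), with the length trend removed (-0.25) and with a replicate block (-0.30).

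stan, whose product Flamingo works in planar polarity and in axon and dendrite growth, was the second most abundant member and was not called. Its level was 141, 122 and 97.1 CPM in wild-type replicates 1 to 3 and 163, 170.4 and 150.0 CPM in mutant-labelled replicates 1 to 3. The genotypes did not overlap, with wild-type replicate 1 and mutant-labelled replicate 3 nearest each other. The fit gave a log2 fold change of 0.42 ± 0.16 (95% interval 0.06 to 0.78), with an unadjusted p of 0.0268 and an adjusted p of 0.212. With the length trend removed the log2 fold change was 0.03, and over all settings its lowest adjusted p was 0.0872, in DESeq2.

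ft, the giant cadherin that receives Ds at cell contacts, was among the scarcest members. Its level was 5.14, 0.540 and 4.17 CPM in wild-type replicates 1 to 3 and 1.59, 1.60 and 1.13 CPM in mutant-labelled replicates 1 to 3. The wild-type libraries lay on both sides of the mutant-labelled ones, and wild-type replicate 2, with 19 reads, was the lowest of all. Its log2 fold change was -1.18 ± 0.92 (95% interval -3.26 to 0.89, adjusted p 0.591). Without wild-type replicate 2 it was -1.68 with an adjusted p of 0.425. ft has the longest transcript of the members, at 16852 bases, and its 19 to 141 reads per library are spread over that length.

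The remaining members carry the numbers of their chromosomal sites in their names, all on arm 3R. Cad87A was counted at 45.3, 38.7 and 36.0 CPM in wild-type replicates 1 to 3 and at 35.3, 44.9 and 27.4 CPM in mutant-labelled replicates 1 to 3. The genotypes overlapped, and the 95% interval of the log2 fold change (-0.16 ± 0.24) ran from -0.69 to 0.38. Without mutant-labelled replicate 3 the estimate was 0.0097. In linear terms the interval ran from 0.619-fold to 1.30-fold.

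Cad86C, a cadherin studied in the developing eye, where Hedgehog and Dpp signalling induce it in the morphogenetic furrow, had the largest estimate and a wide error. It was counted at 2.63, 0.170 and 0.714 CPM in wild-type replicates 1 to 3 and at 2.79, 13.2 and 5.34 CPM in mutant-labelled replicates 1 to 3. The genotypes did not overlap, but wild-type replicate 1 and mutant-labelled replicate 1 were nearly level, with 72 and 105 reads. The log2 fold change was 2.61 ± 1.03 (95% interval 0.27 to 4.94), with an unadjusted p of 0.0324 and an adjusted p of 0.237. Leaving out 1 library at a time moved the log2 fold change between 1.79, without mutant-labelled replicate 2, and 4.02, without wild-type replicate 1, and none of these passed the threshold.

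Cad88C was counted at 2.04, 6.73 and 3.81 CPM in wild-type replicates 1 to 3 and at 6.13, 1.94 and 25.3 CPM in mutant-labelled replicates 1 to 3. Mutant-labelled replicate 3 alone stood apart, at 3.77 times the next highest library. The log2 fold change of 1.41 ± 0.87 (adjusted p 0.486) became -0.045 without that library.

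Cad96Ca encodes a receptor tyrosine kinase with a cadherin domain, also named Stitcher and known for epidermal wound repair. It was counted at 6.82, 3.75 and 7.46 CPM in wild-type replicates 1 to 3 and at 1.25, 2.01 and 2.78 CPM in mutant-labelled replicates 1 to 3. All wild-type libraries lay above all mutant-labelled ones. The fit gave -1.58 ± 0.62 on the log2 scale (95% interval -2.99 to -0.16), with an unadjusted p of 0.0325 and an adjusted p of 0.237. It stayed between -1.88 and -1.33 over the 13 settings that tested it, which leave out the stricter filter, and was called in none, with a lowest adjusted p of 0.115. Of 12 epithelial, tracheal and cuticle markers, 10 had counts, and their summed level was 71.3 to 150 CPM in wild-type and 52.1 to 72.4 CPM in the mutant-labelled libraries, ranges that overlap. These markers did not move one way: 3 of 9 tested had estimates above 0 and 6 below. The cuticle genes Cpr51A, Cpr100A and Lcp65Ad were called lower, at 2.52 to 32.4 CPM over the wild-type libraries and at 0 to 0.0810 CPM over the mutant-labelled ones. Of this list, edgeR called 3 lower, DESeq2 called 4 lower and limma-voom called 0. For the higher direction DESeq2 called 1, and edgeR and limma-voom called 0. The epithelial polarity gene crb was at 2.08 to 6.82 CPM in wild-type and 12.4 to 26.7 CPM in the mutant-labelled libraries (log2 fold change 2.12 ± 0.51, adjusted p 0.0546), and the epithelial factor gene grh at 0.675 to 1.31 and 1.38 to 3.32 CPM. Averaged over both genotypes, the septate junction gene kune was the most abundant. It was at 27.3 to 34.4 CPM in wild-type and 16.8 to 21.0 CPM in the mutant-labelled libraries. Its log2 fold change was -0.74 ± 0.23 (adjusted p 0.133). That of sinu, named after its value was seen, was -0.89 ± 0.34 (adjusted p 0.214). Groups did not overlap for 7 of the 9 tested markers (77.8%, beside 23.2% of all genes). With an unadjusted p under 0.05 there were 5 lower and 1 higher. The cuticle gene Cpr49Aa had no count in any library. The part of other cells in the difference was not tested, and in bulk libraries fewer cells of a type and less RNA per cell cannot be told apart.

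**Figure D2:**
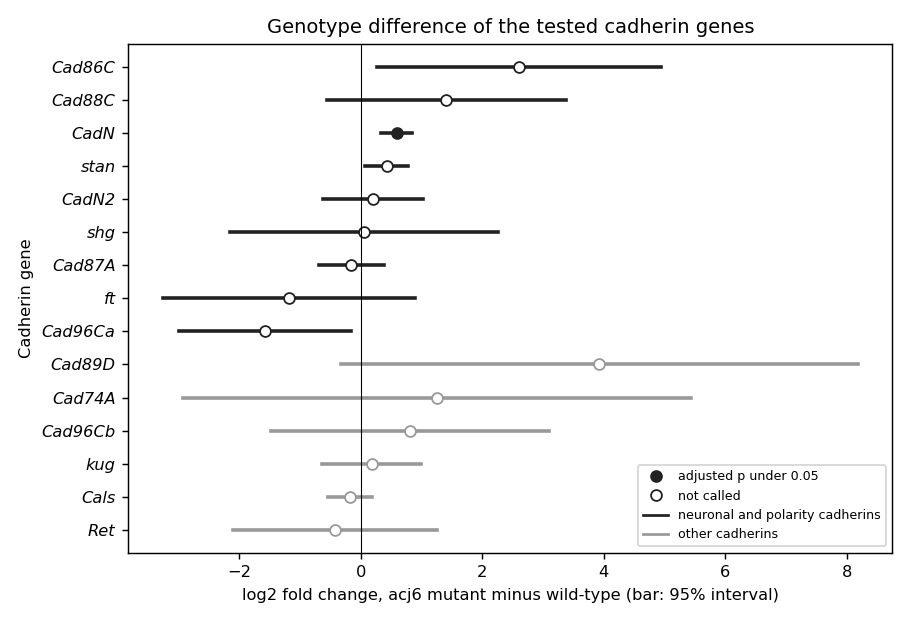
Log2 fold change (acj6 mutant minus wild-type) of the 9 members and of 6 other cadherin genes that passed the filter. Bars are 95% intervals approximated from the F statistic of edgeR's quasi-likelihood test over 3 libraries per genotype. The filled point, CadN at 0.59, is the 1 gene called, and the widest intervals belong to genes under 10 CPM.

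Over the family, 1 of the 9 tested members was called higher, beside 3.07% of all 9229 genes, and 0 were called lower, beside 1.33%. By either direction 4.4% of all genes were called, 283 higher and 123 lower, or 193 higher and 150 lower with the length trend removed. For the lower direction DESeq2 and limma-voom also called 0 members, and 1 member, Cad96Ca, had an unadjusted p under 0.05. Groups did not overlap for 4 of the 9 members (CadN, stan, Cad86C and Cad96Ca), beside 23.2% of all genes tested. The same 4 had an unadjusted p under 0.05, beside 16.6% of all genes. The median log2 fold change of the 9 was 0.19, against -0.0059 over all genes, with 6 estimates above 0 and 3 below.

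Cadherin transcripts are long, and in these libraries the genotype difference varied with transcript length. The tested members had a median transcript length of 7255 bases, against 1953.5 bases over the genes with a length. Among the 493 tested genes of 6000 bases or longer, the median log2 fold change was 0.33 and 13.2% were called higher, against a median of -0.10 and 1.16% called higher among the 3115 genes of 1000 to 2000 bases. Of the members, Cad96Ca, at 2939 bases, was the 1 shorter than 6000 bases. In the 123 tested genes of 9000 bases or longer, the class that holds CadN, stan and ft, the median was 0.37, so that the estimates of CadN (0.59) and stan (0.42) lay above it and that of ft (-1.18) lay below it. With the trend removed, CadN, stan, CadN2 and Cad87A had log2 fold changes of 0.23, 0.03, -0.11 and -0.47, and no member was called, while 3.72% of all genes were. Removing the trend also takes out any genotype effect that long genes share, and the part of either in the CadN difference was not tested.

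**Figure D3:**
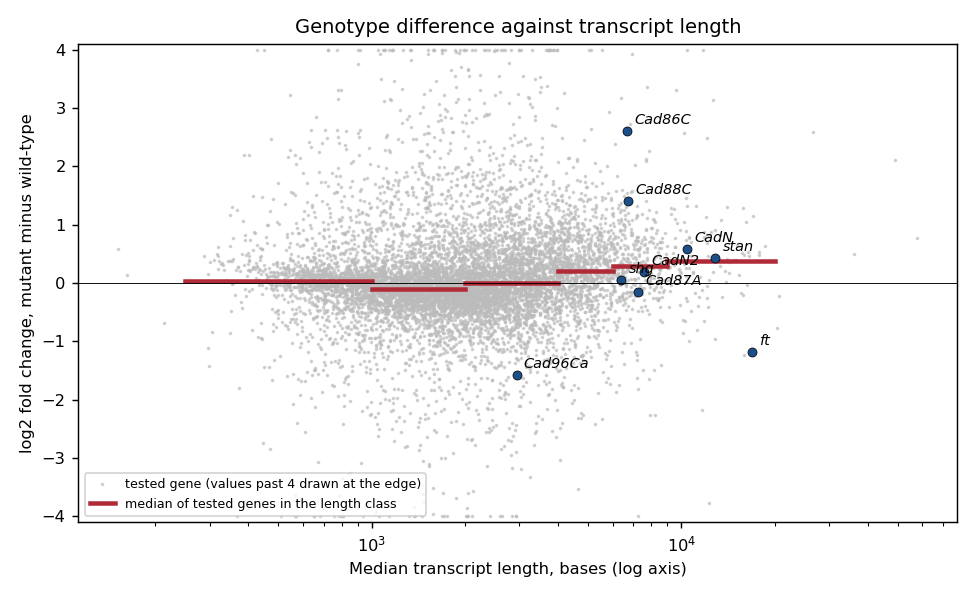
Log2 fold change (acj6 mutant minus wild-type) of each tested gene against its median transcript length in bases (log axis). Grey points are genes, red bars the medians of 6 length classes and blue points the cadherin members. The class medians run from -0.10 at 1000 to 2000 bases to 0.37 at 9000 bases and longer, and CadN and stan lie close above the last.

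**Figure D4:**
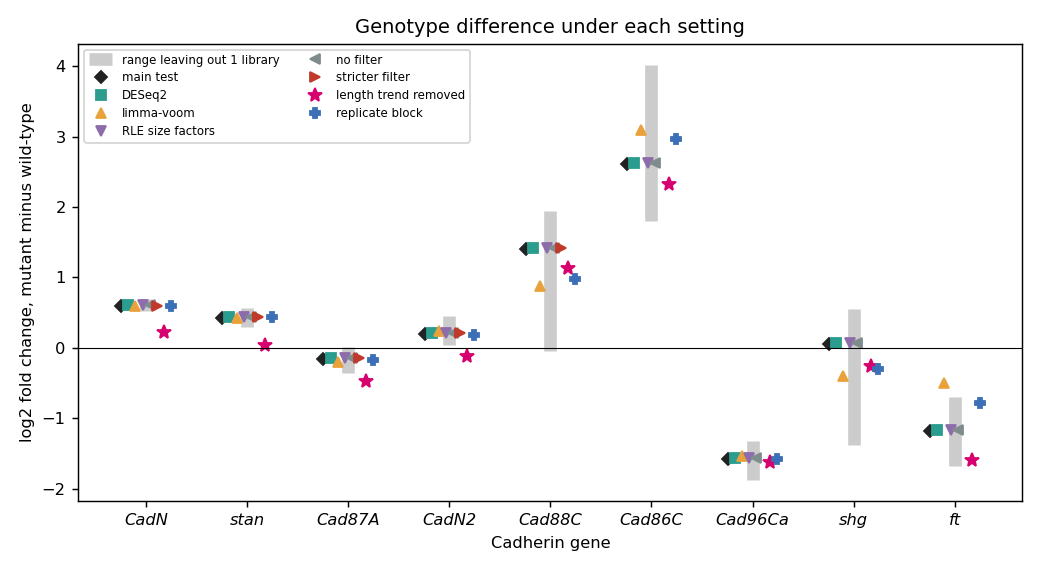
Log2 fold change of each member under the main test and each alternative setting, with the grey bar spanning the fits that leave out 1 library. CadN stays above 0 in every setting shown, at 0.23 to 0.69, while shg, Cad88C, CadN2 and Cad87A cross 0 in at least 1.

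The 7 other cadherin genes of the fly gave no call among the 6 that were tested. edgeR, DESeq2 and limma-voom each called 0, beside 4.4% of all genes by edgeR. None had an unadjusted p under 0.05, beside 16.6% of all genes, and for none were the groups apart, beside 23.2%. Cals, which encodes the neuronal calsyntenin, was the most abundant of them at 214 ± 32.2 CPM in wild-type and 189.8 ± 29.3 CPM in the mutant-labelled libraries (SD, n = 3), with a 95% interval of the log2 fold change from -0.54 to 0.19. Per kilobase it stood at 34.4 ± 5.18 CPM per kb in wild-type, level with CadN there. Its value is uncertain, since 14.4% of its exon bases are shared with other gene models and the strand setting of the counting is not given. kug, the Fat2 gene of rotating egg chambers, was at 33.1 ± 5.78 and 37.4 ± 20.2 CPM, and Ret, a receptor tyrosine kinase gene, at 9.55 ± 7.91 and 7.09 ± 3.90 CPM. Cad74A (0 to 1.87 CPM), Cad96Cb (0.227 to 3.77 CPM) and Cad99C (0.0568 to 1.25 CPM), the last not tested, were scarce in all 6 libraries. Cad89D was at 14.3 CPM in mutant-labelled replicate 3 and at 0 to 0.969 CPM in the other 5 libraries.

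Among catenins and other proteins that work with cadherins at junctions and growth cones, the kinase gene Src42A was called higher and no gene was called lower. Src42A, whose product phosphorylates junction proteins, was at 313, 314 and 393 CPM in wild-type replicates 1 to 3 and at 626, 569.6 and 539 CPM in mutant-labelled replicates 1 to 3, with no overlap. Its log2 fold change was 0.77 ± 0.12 (adjusted p 0.0123), and 0.72 without wild-type replicate 2 (adjusted p 0.0610), the setting that ended the call. It was the 1 called of 15 tested, beside 4.4% of all genes. The list's median log2 fold change was 0.19, and groups did not overlap for 5 of the 15 (33.3%, beside 23.2% of all genes). arm, the beta-catenin gene and the most abundant of the list, was at 1531 ± 337 and 1913 ± 259 CPM (log2 fold change 0.32 ± 0.16, adjusted p 0.357). alpha-Cat was at 83.4 ± 22.6 and 66.9 ± 7.11 CPM. For the higher direction, edgeR and limma-voom called 1, DESeq2 called 3 and 4 genes had an unadjusted p under 0.05. The largest estimate was that of cno, at 19.8 ± 9.77 and 58.2 ± 24.3 CPM without overlap, named after its value was seen. Its log2 fold change was 1.56 ± 0.41 (adjusted p 0.0763), and it was called with DESeq2, no filter, the stricter filter and a replicate block. For the lower direction, edgeR and limma-voom called 0, DESeq2 called 1 and 1 gene had an unadjusted p under 0.05. That gene was p120ctn, the catenin of the juxtamembrane region, at 266 ± 31.0 and 168 ± 46.5 CPM (log2 fold change -0.66 ± 0.19, adjusted p 0.101), named after its value was seen. It was called with DESeq2, no filter, a replicate block and without mutant-labelled replicate 1.

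None of the 16 tested genes of the Fat, Dachsous and Hippo pathway was called by edgeR, beside 4.4% of all genes. Their median log2 fold change was -0.16, and groups did not overlap for 2 of the 16 (12.5%, beside 23.2% of all genes). limma-voom called 0, DESeq2 called 1 lower, and 1 gene had an unadjusted p under 0.05. That gene was wts, the Warts kinase of the Hippo cascade, at 10.4, 15.1 and 10.6 CPM in wild-type replicates 1 to 3 and at 5.02, 2.34 and 4.32 CPM in mutant-labelled replicates 1 to 3 (log2 fold change -1.63 ± 0.46, adjusted p 0.0910), named after its values were seen. fj, the Golgi kinase that modifies Ft and Ds, was low throughout, between 0.119 and 4.27 CPM. Gug, the Atrophin corepressor and the most abundant of the list, was at 247 ± 12.6 and 260.2 ± 55.6 CPM.

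Among the planar polarity core genes and Flamingo partners, Rho1 was called lower and no gene was called higher among 15 tested. Of all genes, 1.33% were called lower and 3.07% higher. Rho1, the small GTPase through which polarity signals reach the cytoskeleton, was at 519.6, 518 and 479.9 CPM in wild-type replicates 1 to 3 and at 368, 357 and 365 CPM in mutant-labelled replicates 1 to 3. The genotypes were well apart and the spread within each was small. The log2 fold change was -0.48 ± 0.09 (adjusted p 0.0253), and it kept between -0.51 and -0.41 in every setting. The adjusted p lay between 0.0530 and 0.121 whenever any 1 of the 6 libraries was left out, so the call rests on all of them. Averaged over both genotypes, the most abundant gene of the list was Galphao, a G protein subunit that acts with Frizzled. It was at 414 ± 69.5 and 478.5 ± 73.9 CPM (adjusted p 0.571), below Rho1 in wild-type and above it in the mutant-labelled libraries. For the higher direction edgeR and limma-voom called 0, DESeq2 called 1, and 1 gene had an unadjusted p under 0.05. That gene was nmo, the Nemo kinase, at 260.5 ± 11.6 and 349 ± 14.9 CPM (log2 fold change 0.42 ± 0.10, adjusted p 0.0535), named after its value was seen. It was called with DESeq2, RLE size factors, the stricter filter and the length trend removed, but in no leave-out. The list's median log2 fold change was 0.21, and groups did not overlap for 2 of the 15 (13.3%, beside 23.2% of all genes).

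**Figure D5:**
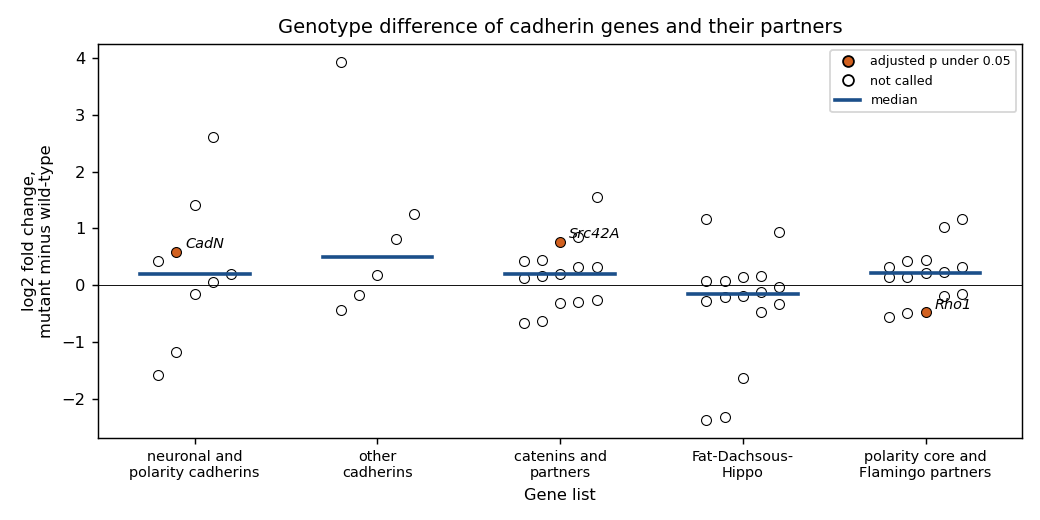
Log2 fold change (acj6 mutant minus wild-type) of each tested gene in the cadherin set, the other cadherins and the 3 partner lists. Points are genes, filled where the adjusted p was under 0.05, and bars are list medians. CadN and Src42A lie above 0 and Rho1 below, and the list medians lie between -0.16 and 0.49.

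Markers of other cells were also counted, at levels that differed widely between lists, and their part in the values above was not tested. The 8 glial markers summed to 617 to 694 CPM in wild-type and 485 to 516 CPM in the mutant-labelled libraries. Most of that came from the sodium pump subunit gene nrv2 (432 ± 35.4 and 314 ± 7.60 CPM, log2 fold change -0.46 ± 0.10, adjusted p 0.0425), while the glial factor gene repo was at 0.664 to 3.04 CPM over the 6 libraries. The 10 hemocyte and fat body markers summed to 4701 to 5194 CPM in wild-type and 3914 to 5499 CPM in the mutant-labelled libraries, and without Pxn, itself at 4887 ± 257 and 4595 ± 810.5 CPM, to 12.6 to 30.8 and 24.8 to 36.3 CPM. Hml, a hemocyte gene, had no count in wild-type replicates 2 and 3 and reached 0.743 CPM elsewhere. The 10 muscle markers summed to 7.58 to 16.9 CPM in wild-type and 23.8 to 35.8 CPM in the mutant-labelled libraries. Averaged over both genotypes sls led them, and Mhc was at 0.119 to 1.11 CPM. The 8 progenitor markers summed to 13.7 to 18.2 and 3.40 to 17.7 CPM, led by PCNA. Among them wor had no count in any library and dpn stayed at or under 0.436 CPM.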

How the data were processed

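Total RNA of adPNs was amplified by modified SMART-seq2, as the labels state. The method carries no molecular identifiers, so amplified copies are counted too, and floors cover counting error only. The deposited values are raw read counts per gene, 1 file per library. HTSeq 0.11.2, STAR 2.5.4 and bcl2fastq 2.19.0.316 are named in the submitters' processing notes. Genome build, annotation and strand setting were not given in the sources used here, so coordinates were left out.

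Counts of 17471 FlyBase identifiers were used, of which 17242 matched an Ensembl symbol. Spike-ins, transgenes and summary entries were left out, and reads outside genes came to 8.59% to 10.9% of the gene counts. Lengths and exon overlaps came from the Ensembl 115 models of BDGP6.54, by identifier. Of the genes tested, 98.5% had a length.

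Genes kept by filterByExpr were tested with edgeR 4.0.16 (TMM, glmQLFit, glmQLFTest, R 4.3.3) on genotype over 6 libraries. Alternatives were DESeq2 1.42.0, limma-voom 3.58.1, RLE size factors, no filter, at least 5 CPM in 3 libraries, removal of each library's length trend (lowess, span 0.3), a replicate block, and each library left out. On counts simulated for this genotype contrast over 8932 genes, with 200 genes changed 2-fold either way, edgeR recovered 46.0% of them, and 6.12% of its calls were false. In the same simulation 24.7% of DESeq2's calls were false. The changed genes were drawn only from genes above a floor in mean CPM, which shg, ft, Cad86C, Cad88C and Cad96Ca do not reach. The share recovered by edgeR was not split by CPM either, and it gives no value for such scarce members. Members, partner lists, markers and named genes (all members, other cadherins, called and most abundant partners, and defining markers) were chosen with earlier results of these data known.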

Additional observations from a re-analysis of the deposited data

How the results depend on the processing

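CadN was called higher with DESeq2, limma-voom, RLE size factors, no filter, the stricter filter and a replicate block. The count of members called higher was 0 with the length trend removed, and 0 to 1 with 1 library left out. No member was called lower in any setting, and 5 members passed the stricter filter. The log2 fold change of CadN2 turned to -0.11 with the length trend removed. That of shg turned to -0.41 with limma-voom, -0.25 with the length trend removed, -0.30 with a replicate block and as far as -1.37 with 1 library left out (highest 0.55). Leaving out 1 library gave -0.35 to 0.0097 for Cad87A and -0.045 to 1.94 for Cad88C. Over all genes, DESeq2 called 627 higher and 313 lower, the replicate block 78 lower against 123, and leave-outs 109 to 188 higher and 34 to 64 lower. Called genes among catenins and partners numbered 4 with DESeq2, 3 with no filter, 2 with the stricter filter, 3 with a replicate block and 0 to 3 in leave-outs, against 1. Polarity genes called numbered 2 with DESeq2, RLE size factors, the stricter filter or the length trend removed, 0 with a replicate block and 0 in all leave-outs, against 1. DESeq2 called 1 Fat, Dachsous and Hippo gene against 0. The cause of these shifts was not tested, and the leave-outs also hold fewer libraries. The difference in the log2 ratio of CadN2 to CadN lay between -0.63 and -0.12 in leave-outs.

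Libraries with the same replicate number did not deviate together from their group means (correlations across genes 0.0163, 0.00151 and 0.0475), so the numbers were not taken as pairs. With the block CadN kept its call (0.59, adjusted p 0.0288) and Rho1 lost it (-0.48, adjusted p 0.0670). The ratio of ds to ft was not run, since ds has no value. The 5 members with wild-type means under 10 CPM rest on 6 to 939 reads per library, and their 95% intervals reach more than 1 on the log2 scale to either side of the estimate.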

Other observations

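Several scarce cadherin genes had a large share of their counts in a single library, and the library differed from gene to gene. Mutant-labelled replicate 3 held 87.4% of the CPM of Cad89D summed over the 6 libraries and 55.1% of that of Cad88C. Mutant-labelled replicate 2 held 53.2% of that of Cad86C and 56.1% of that of Cad74A, and mutant-labelled replicate 1 held 38.3% of that of shg and 56.5% of that of Cad99C. Wild-type replicate 1 held 36.3% of that of ft, and wild-type replicate 3 held 36.2% of that of Ret and 31.0% of that of Cad96Ca. An equal share would be 16.7% per library. In contrast, the highest library held 21.3% for CadN, 20.2% for stan and 19.9% for Cad87A. Beside these, glial markers summed to 485, 516 and 499.8 CPM in mutant-labelled replicates 1 to 3, and epithelial, tracheal and cuticle markers at 68.9, 72.4 and 52.1 CPM.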
